A study of Homo sapiens with 12 samples.

Results

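Nucleotide excision repair removes bulky DNA lesions such as those left by ultraviolet light. XPC, with the DDB1 and DDB2 ubiquitin ligase subunits, finds lesions across the genome, while ERCC6 (the Cockayne syndrome protein CSB) acts where RNA polymerase has stalled. Both routes lead to TFIIH, whose helicases ERCC2 (XPD) and ERCC3 (XPB) open the DNA. XPA verifies the lesion, and the nucleases ERCC5 (XPG) and ERCC1-ERCC4 (the XPF complex) cut the damaged strand on either side. The 10 genes XPC, DDB1, DDB2, ERCC6, ERCC2, ERCC3, XPA, ERCC1, ERCC4 and ERCC5 were measured by 15 of the 34127 gene probes on the array, of which 26449 are tied by RefSeq accessions to 20167 genes. The 15 are all probes whose accession belongs to one of the 10 genes in RefSeq. 5 genes had 1 probe and 5 had 2. All 15 probes were well above background on all 12 arrays.

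U2OS cells, a human osteosarcoma cell line that retains wild-type p53, were transfected with 20 nM of a control siRNA or of an siRNA against DBP5, GLE1 or IPPK, and cultured for 48 h by the methods of the study. More than 1 siRNA is listed for control, GLE1 and IPPK, and which was used on the arrays is not given in the sources used here, so that effects of a gene and of an siRNA sequence cannot be told apart. No other agent or allele was named, and all groups came from this 1 line. DBP5 is an RNA helicase that acts in mRNA export at the nuclear pore, GLE1 activates it together with the inositol phosphate IP6, and IPPK is the kinase that makes IP6. One-colour arrays measured the RNA of the cytoplasmic fraction, 3 for each of the 4 siRNAs, and each of 3 slides carried 1 array per siRNA. The arrays measured RNA of many cells at once, so that fewer cells with a transcript and less transcript in each cell could not be told apart, and nuclear RNA was not measured. Nothing in the labels says whether the 3 arrays of an siRNA came from separate cultures, and the methods describe 3 independent experiments.

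Each siRNA lowered its own target on the arrays. DDX19B, the gene of DBP5, was at 0.0643 ± 0.00169 of control after DBP5 siRNA, GLE1 at 0.102 ± 0.0283 after GLE1 siRNA and IPPK at 0.186 ± 0.00761 after IPPK siRNA (ratio of group means, SD of the knock-down arrays, n = 3; limma adjusted p = 6.76e-11, 2.11e-08 and 1.52e-09). The targets of the other siRNAs were lower too: DDX19B was at 0.498 after GLE1 siRNA (adjusted p = 9.64e-08) and 0.872 after IPPK siRNA (0.0132), IPPK at 0.419 after DBP5 siRNA (8.67e-08) and 0.834 after GLE1 siRNA (0.00403), and GLE1 at 0.713 after IPPK siRNA (0.0186) and, not called, 0.777 after DBP5 siRNA (0.0643). The part of these other targets in the values below was not tested. Between 72.6% and 79% of the spots of an array were well above background, with the lowest share on replicate 1 of IPPK siRNA. Of the mesenchymal markers VIM, FN1, SPARC, COL1A1, COL1A2, RUNX2 and ALPL, 6 of 7 were well above background on all 12 arrays, as were 1 of 3 epithelial markers (EPCAM) and 1 of 4 blood and endothelial markers (PTPRC). Among RNAs that stay in the nucleus, MALAT1 was at 0.689, 0.809 and 0.472 of control with DBP5, with GLE1 and with IPPK siRNA (limma adjusted p = 0.0956, 0.322 and 0.00372) KCNQ1OT1 at 1.59, 1.85 and 1.17 (1.76e-05, 1.29e-06 and 0.0196) and MEG3 at 0.956, 1.27 and 1.04 (0.619, 0.00882 and 0.699). The part of nuclear RNA in the values below was not tested.

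Repair probes were called in both directions, in shares read here against those of all probes. Past limma's threshold (adjusted p of 0.05 over the 25879 probes tested), 3 of the 15 probes were lower and 10 higher after DBP5 siRNA, where 27% of all probes were called lower and 27.6% higher. After GLE1 siRNA, 5 were lower and 8 higher, beside 30.1% and 32.5% of all probes. After IPPK siRNA, 3 were lower and 3 higher, beside 27.9% and 27.4%. Apart from the higher counts after DBP5 and GLE1 siRNA, these were near or below the shares of all probes. The methods' t-test called 0 lower and 3 higher after DBP5 siRNA, 5 and 6 after GLE1 siRNA and 1 and 0 after IPPK siRNA, and so lost 17 of the 32 calls. The median log2 difference of the 15 probes was 0.28, 0.30 and 0.08 after DBP5, GLE1 and IPPK siRNA, while that of all probes was -0.01, 0.03 and -0.02. The probes of 1 gene share that gene and are not independent. With the brightest probe for each of the 10 genes, 3 were lower and 5 higher after DBP5 siRNA, 4 and 4 after GLE1 siRNA and 3 and 2 after IPPK siRNA. The IPPK count moved with single arrays: without replicate 3 of control siRNA 1 probe was higher, without replicate 1 of IPPK siRNA 5 were, and without replicate 1 of DBP5 siRNA 5 were lower. Scaling to the 75th percentile gave 5 lower and 2 higher after IPPK siRNA. On all 3 slides, every probe called against control moved in the direction of its call. The 3 comparisons share the control arrays.

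**Figure D1:**
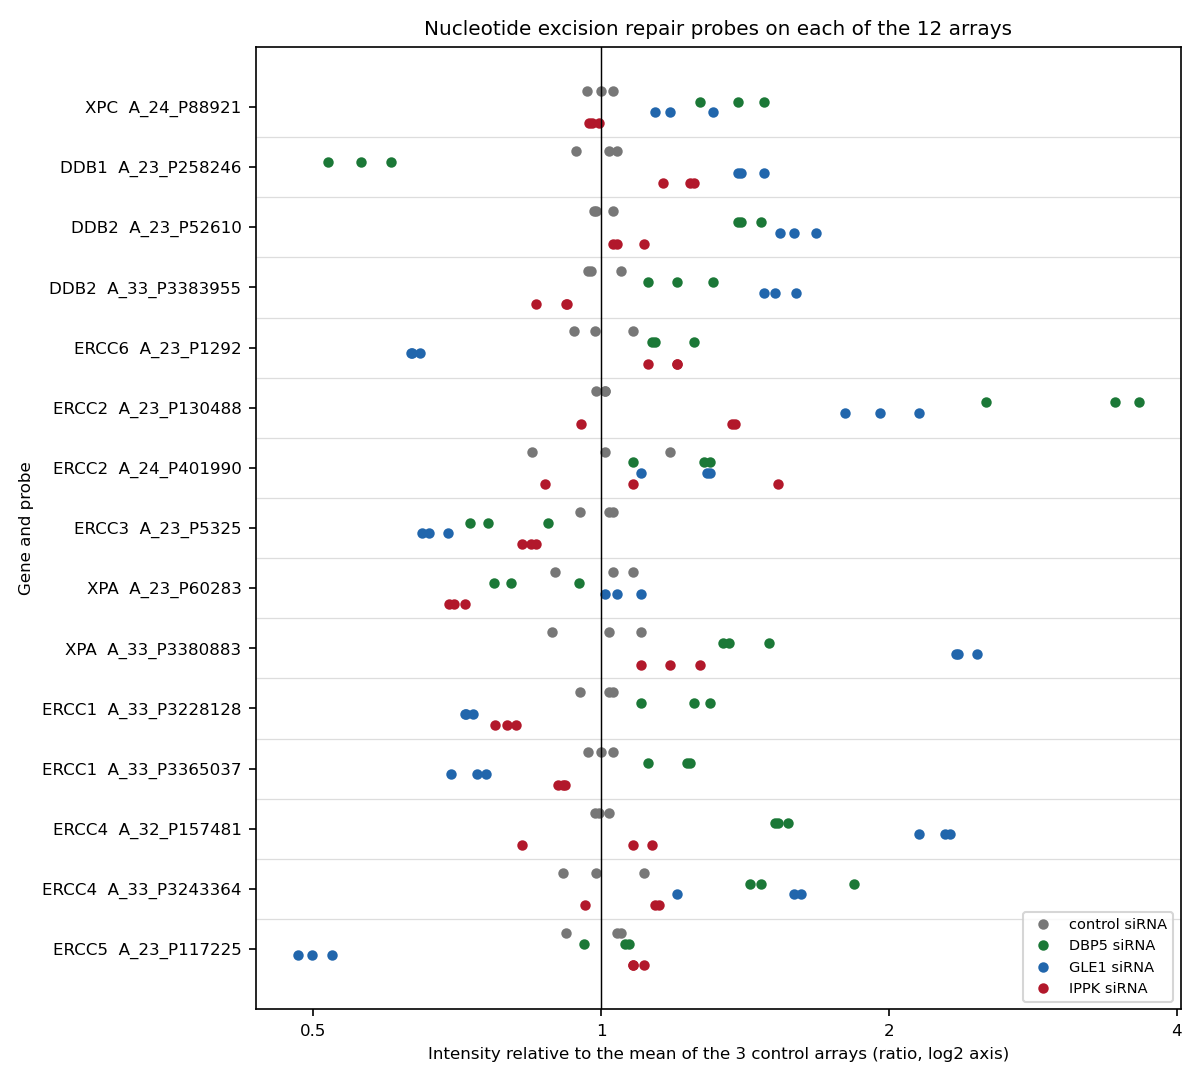
Intensity of each repair probe on each of the 12 arrays, as a ratio to the mean of the 3 control arrays on a log2 axis. Each point is 1 array, coloured by siRNA; DDB1 lay lowest on the DBP5 siRNA arrays, ERCC5 and ERCC6 on the GLE1 siRNA arrays, and the ERCC2 probe A_23_P130488 reached the highest ratios, after DBP5 siRNA.

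Among the lesion sensors, DDB1 moved in opposite directions. DDB1 is the adaptor that ties DDB2 to the CUL4 ubiquitin ligase. Its probe A_23_P258246 read 13.72, 13.58 and 13.70 on the control arrays in normalized log2 intensity. The DBP5 siRNA arrays read 12.72, 12.94 and 12.83, the GLE1 siRNA arrays 14.24, 14.15 and 14.14 and the IPPK siRNA arrays 13.89, 13.98 and 13.99. The DBP5 siRNA arrays were all below every control array, the GLE1 and IPPK siRNA arrays were all above, and no groups overlapped. DDB1 was thus at 0.56 ± 0.0426 of control after DBP5 siRNA (SD, n = 3; limma adjusted p = 2.3e-06), at 1.42 ± 0.0515 after GLE1 siRNA (6.41e-05) and at 1.22 ± 0.0503 after IPPK siRNA (0.00412). By the methods' t-test the DBP5 and IPPK differences, of -0.84 and 0.29 on the log2 scale, were not called (adjusted p = 0.0555 and 0.0993).

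DDB2, which binds ultraviolet lesions in chromatin and is a known p53 target, rose after DBP5 and GLE1 siRNA on both of its probes. Probe A_23_P52610 read 14.13, 14.19 and 14.13 on the control arrays, 14.70, 14.64 and 14.62 after DBP5 siRNA, 14.90, 14.82 and 14.77 after GLE1 siRNA and 14.30, 14.19 and 14.21 after IPPK siRNA. The GLE1 siRNA arrays were the highest and the DBP5 siRNA arrays next, with no overlap with control, whereas the IPPK siRNA arrays overlapped with control. The ratios to control were 1.42 ± 0.0421, 1.60 ± 0.0736 and 1.06 ± 0.0423 (SD, n = 3), with limma adjusted p = 1.56e-05, 9.96e-07 and 0.231, and the 95% interval of the last ran from 0.974 to 1.15. Probe A_33_P3383955 gave ratios of 1.21, 1.53 and 0.898 (limma adjusted p = 0.00613, 1.66e-05 and 0.0773). The methods' t-test did not call its rise after DBP5 siRNA, of 0.27 on the log2 scale (adjusted p = 0.195). Its 3 IPPK siRNA arrays all lay below the control arrays, and with scaling to the 75th percentile that difference passed the threshold (-0.18 on the log2 scale, adjusted p = 0.0418; 0.0418 to 0.244 over the alternatives).

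XPC, the genome-wide lesion sensor and another gene known to respond to p53, rose in the same pair of knock-downs. Its probe A_24_P88921 read 9.64, 9.55 and 9.60 on the control arrays, 9.95, 10.07 and 10.16 after DBP5 siRNA, 9.98, 9.83 and 9.78 after GLE1 siRNA and 9.59, 9.55 and 9.56 after IPPK siRNA. All DBP5 and GLE1 siRNA arrays were above the control arrays, and the IPPK siRNA arrays overlapped with them. The ratios were 1.38 ± 0.104 (limma adjusted p = 0.000201), 1.21 ± 0.0894 (0.00562) and 0.982 ± 0.0126 (0.779), the last with a 95% interval from 0.883 to 1.09. The GLE1 call was lost with normexp background correction and with the processed values of the authors (limma adjusted p = 0.0508 and 0.0739, and 0.00302 to 0.0739 over the alternatives). By the methods' t-test neither the DBP5 nor the GLE1 rise was called (adjusted p = 0.0762 and 0.0591). Of 12 other p53 targets, 9 were higher and 2 lower after DBP5 siRNA, 12 and 0 after GLE1 siRNA and 10 and 2 after IPPK siRNA, beside the shares of all probes given above, with median log2 differences of 0.57, 1.42 and 0.72. Their relation to DDB2 and XPC was not tested.

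Sequences at the gene starts (RefSeq, GRCh38.p14) are shown for DDB2 and XPC, which rose in the same knock-downs. They are also shown for DDB1 and ERCC5, whose levels did not overlap between the GLE1 and DBP5 siRNA arrays. Neither trait was particular to these genes. Both ERCC4 probes also rose after DBP5 and GLE1 siRNA, and ERCC6, ERCC3 and both ERCC1 probes did not overlap between those arrays either. A RefSeq window runs from 250 bases before a transcript's start to 50 after it, and all 10 genes had at least 1, with 14 in all. One of both DDB2 windows held 2 p53 decamers, found on either strand and starting at bases 6 and 17 of the transcript, in a stretch of 30 bases at chr11:47214975-47215004, plus strand, in which capitals mark the decamers. At least 1 such decamer was in 6.63% of all 35116 windows, and 2 that did not overlap were in 0.305%. No other member window held one. For XPC (chr3:14178602-14178851, minus strand), DDB1 (chr11:61333106-61333355, minus strand) and ERCC5 (chr13:102845782-102846031, plus strand), the 250 bases before the start are shown, with capitals for the GC box GGGCGG on either strand.
DDB2: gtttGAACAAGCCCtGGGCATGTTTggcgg
XPC: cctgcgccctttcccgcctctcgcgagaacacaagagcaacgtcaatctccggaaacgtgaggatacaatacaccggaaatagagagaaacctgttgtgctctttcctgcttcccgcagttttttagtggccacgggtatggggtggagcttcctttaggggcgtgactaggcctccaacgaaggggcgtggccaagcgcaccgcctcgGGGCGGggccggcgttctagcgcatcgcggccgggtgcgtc
DDB1: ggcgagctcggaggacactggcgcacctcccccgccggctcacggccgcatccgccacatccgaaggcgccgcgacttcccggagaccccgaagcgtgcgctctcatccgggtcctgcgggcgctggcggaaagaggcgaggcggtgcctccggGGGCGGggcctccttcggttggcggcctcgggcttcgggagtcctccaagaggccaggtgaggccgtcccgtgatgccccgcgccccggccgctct
ERCC5: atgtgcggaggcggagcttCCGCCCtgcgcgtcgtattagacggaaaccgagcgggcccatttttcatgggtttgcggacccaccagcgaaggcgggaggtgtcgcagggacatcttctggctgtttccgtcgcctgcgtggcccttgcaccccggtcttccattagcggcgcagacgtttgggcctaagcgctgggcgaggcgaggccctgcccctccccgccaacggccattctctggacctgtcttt
A GC box was in 9 of the 14 member windows, from 8 genes, and in 45% of all windows. The CCAAT box, CCAAT, was in windows of DDB2, ERCC1 and ERCC2 (34.6% of all windows), and an E2F site (TTTCCCGC, TTTCGCGC, TTTGCCGC or TTTGGCGC) only in the XPC window among the members (3.31% of all windows). The ETS site CCGGAAGT was in windows of ERCC1 and ERCC3 (4.14%), and the E-box CACGTG was in a window of ERCC6 (7.26%). No member window held TATAAA (11.5% of all windows) or the cAMP response element TGACGTCA (1.85%). All motifs were searched on both strands, matches of different motifs did not overlap in the member windows, and a match describes the letters alone.

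ERCC6, the chromatin remodeller of transcription-coupled repair, fell after GLE1 siRNA. Its probe A_23_P1292 read 8.74, 8.88 and 8.67 on the control arrays, 9.08, 8.95 and 8.94 after DBP5 siRNA, 8.10, 8.11 and 8.13 after GLE1 siRNA and 8.92, 9.02 and 9.03 after IPPK siRNA. All GLE1 siRNA arrays were below every other array, and the DBP5 and IPPK siRNA arrays were all above the control arrays. ERCC6 was at 0.637 ± 0.00763 of control after GLE1 siRNA (SD, n = 3; limma adjusted p = 7.83e-06). After DBP5 and IPPK siRNA it was at 1.17 ± 0.0678 and 1.17 ± 0.0481 (adjusted p = 0.0136 and 0.0129). Without replicate 3 of control siRNA both log2 differences were 0.18 in place of 0.23, and neither was called (adjusted p = 0.0554 and 0.0531; 0.00458 to 0.185 and 0.0043 to 0.136 over the alternatives). The DBP5 call was also lost in the fit of the 6 arrays compared alone (adjusted p = 0.06).

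Of the TFIIH helicases, ERCC3 fell in all 3 knock-downs. ERCC3 is the translocase that TFIIH needs in transcription as well as in repair. Its probe A_23_P5325 read 11.56, 11.46 and 11.57 on the control arrays, 11.07, 11.35 and 11.14 after DBP5 siRNA, 11.00, 10.93 and 10.91 after GLE1 siRNA and 11.31, 11.28 and 11.26 after IPPK siRNA. All 9 knock-down arrays were below the lowest control array, and the GLE1 siRNA arrays were the lowest. The ratios to control were 0.788 ± 0.0806, 0.666 ± 0.022 and 0.842 ± 0.0143 (SD, n = 3; limma adjusted p = 0.00187, 3.29e-05 and 0.0125). This probe was called lower in all 3 comparisons, which share the control arrays. By the methods' t-test its DBP5 and IPPK differences, of -0.34 and -0.25 on the log2 scale, were not called (adjusted p = 0.177 and 0.0649).

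The probes of ERCC2, the 5′ to 3′ helicase of TFIIH, differed in the size of the change and in their calls. Probe A_23_P130488 read 7.45, 7.42 and 7.45 on the control arrays, 8.78, 9.23 and 9.31 after DBP5 siRNA, 8.29, 8.41 and 8.55 after GLE1 siRNA and 7.37, 7.90 and 7.91 after IPPK siRNA. The DBP5 and GLE1 siRNA arrays were all above control, and the IPPK siRNA arrays overlapped with it, with replicate 1 below all control arrays. The ratios were 3.17 ± 0.595 (limma adjusted p = 9.76e-06), 1.97 ± 0.172 (0.000364) and 1.22 ± 0.246 (0.168). Without replicate 1 of IPPK siRNA the last difference was 0.46 on the log2 scale (limma adjusted p = 0.0192, and 0.0192 to 0.527 over the alternatives). This probe was among the dimmer ones on the control arrays. With other processing or tests its log2 difference ran from 1.32 to 1.67 after DBP5 siRNA, where the main fit gave 1.66. After GLE1 siRNA it ran from 0.69 to 0.99, where the main fit gave 0.98.

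Probe A_24_P401990, listed under the same ERCC2 accession, read 8.99, 8.77 and 8.52 on the control arrays, 9.11, 9.13 and 8.88 after DBP5 siRNA, 9.13, 9.14 and 8.89 after GLE1 siRNA and 9.37, 8.87 and 8.56 after IPPK siRNA. On this probe all groups overlapped with control, and slide 3 was the lowest of the 3 slides in every group. Taken slide by slide, each knock-down was above control on all 3 slides. The log2 differences were 0.12 to 0.36 after DBP5 siRNA, 0.14 to 0.37 after GLE1 siRNA and 0.04 to 0.38 after IPPK siRNA. The ratios were 1.22, 1.23 and 1.13, with 95% intervals of 0.907 to 1.63, 0.916 to 1.64 and 0.842 to 1.51 (limma adjusted p = 0.245, 0.206 and 0.476). With the replicate number as a block, the GLE1 difference of 0.30 on the log2 scale passed the threshold (adjusted p = 0.041; 0.041 to 0.504 over the alternatives).

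**Figure D2:**
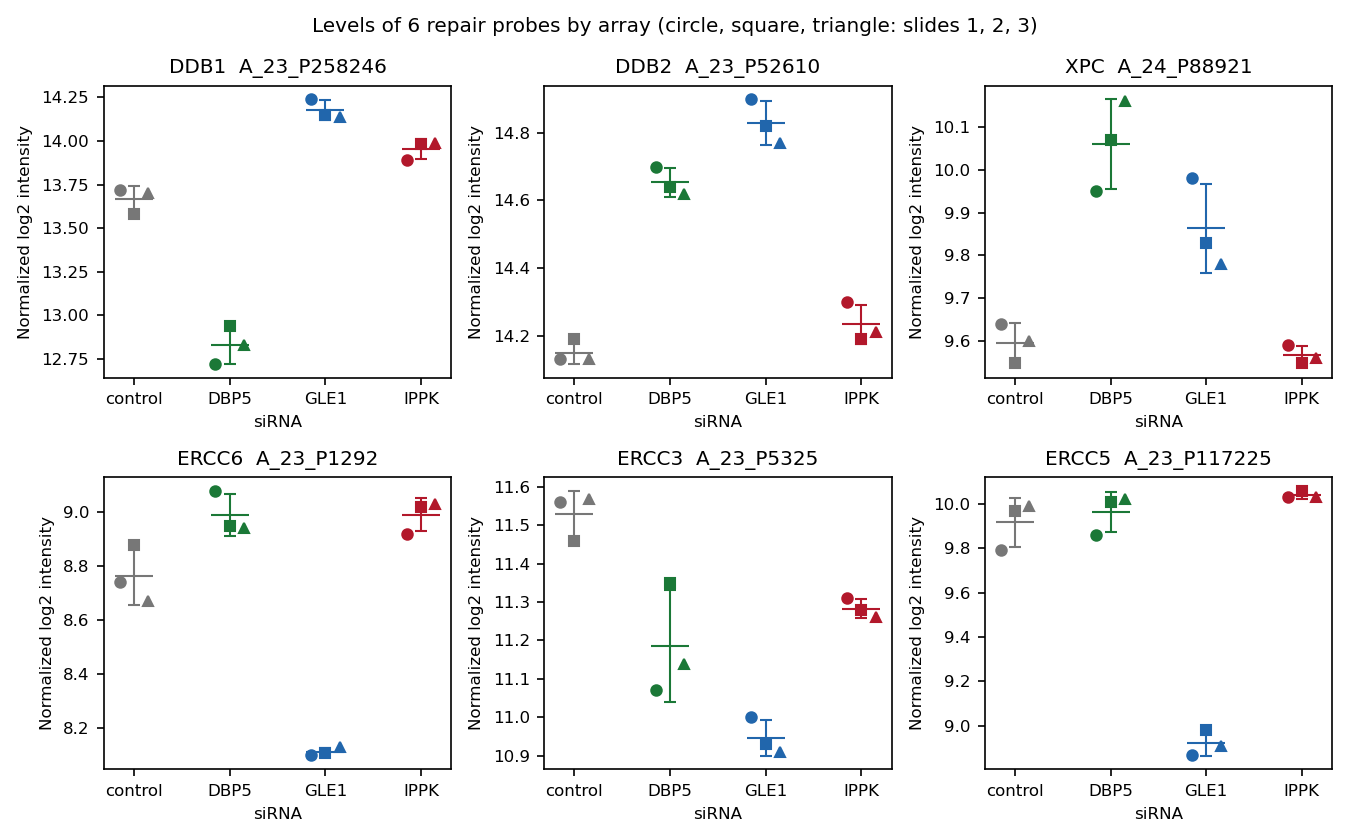
Normalized log2 intensity of 6 probes by siRNA. Each point is 1 array and its shape the slide, horizontal lines are means and bars the SD (n = 3); DDB1 lay below control after DBP5 siRNA and above it after GLE1 and IPPK siRNA, while ERCC5 and ERCC6 lay lowest after GLE1 siRNA.

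XPA, the scaffold that verifies the lesion and holds the incision complex, also gave different answers on its probes. Probe A_23_P60283, listed under the XPA messenger RNA, read 10.30, 10.37 and 10.10 on the control arrays, 10.18, 9.94 and 9.88 after DBP5 siRNA, 10.40, 10.31 and 10.28 after GLE1 siRNA and 9.78, 9.73 and 9.75 after IPPK siRNA. The IPPK siRNA arrays were all below every other array, while the DBP5 and GLE1 siRNA arrays overlapped with control. XPA was at 0.705 ± 0.014 of control after IPPK siRNA (SD, n = 3; limma adjusted p = 0.000658). After GLE1 siRNA it was at 1.05, with a 95% interval from 0.916 to 1.21 (0.52). After DBP5 siRNA it was at 0.839 ± 0.094 (0.0332), a call that was lost in 10 of 22 alternatives (adjusted p from 0.00514 to 0.185), among them those without replicate 1 or 2 of control siRNA or replicate 2 or 3 of DBP5 siRNA (0.0950, 0.121, 0.0984 and 0.120).

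Probe A_33_P3380883, listed under a non-coding transcript of XPA, read 6.31, 6.62 and 6.51 on the control arrays, 7.07, 6.91 and 6.93 after DBP5 siRNA, 7.72, 7.71 and 7.79 after GLE1 siRNA and 6.63, 6.73 and 6.83 after IPPK siRNA. Each knock-down array was above all control arrays, and the GLE1 siRNA arrays were the highest. The ratios were 1.40 ± 0.0851, 2.39 ± 0.0685 and 1.18 ± 0.0843 (SD, n = 3; limma adjusted p = 0.000652, 3.51e-07 and 0.0317). The IPPK call was lost in 8 of 22 alternatives (adjusted p from 0.0121 to 0.13), including scaling to the 75th percentile (0.0852) and the fits without replicate 1 or 3 of control siRNA or replicate 2 or 3 of IPPK siRNA (0.123, 0.0553, 0.0705 and 0.116). On these 2 probes, IPPK siRNA was called lower by 1 and higher by the other.

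**Figure D3:**
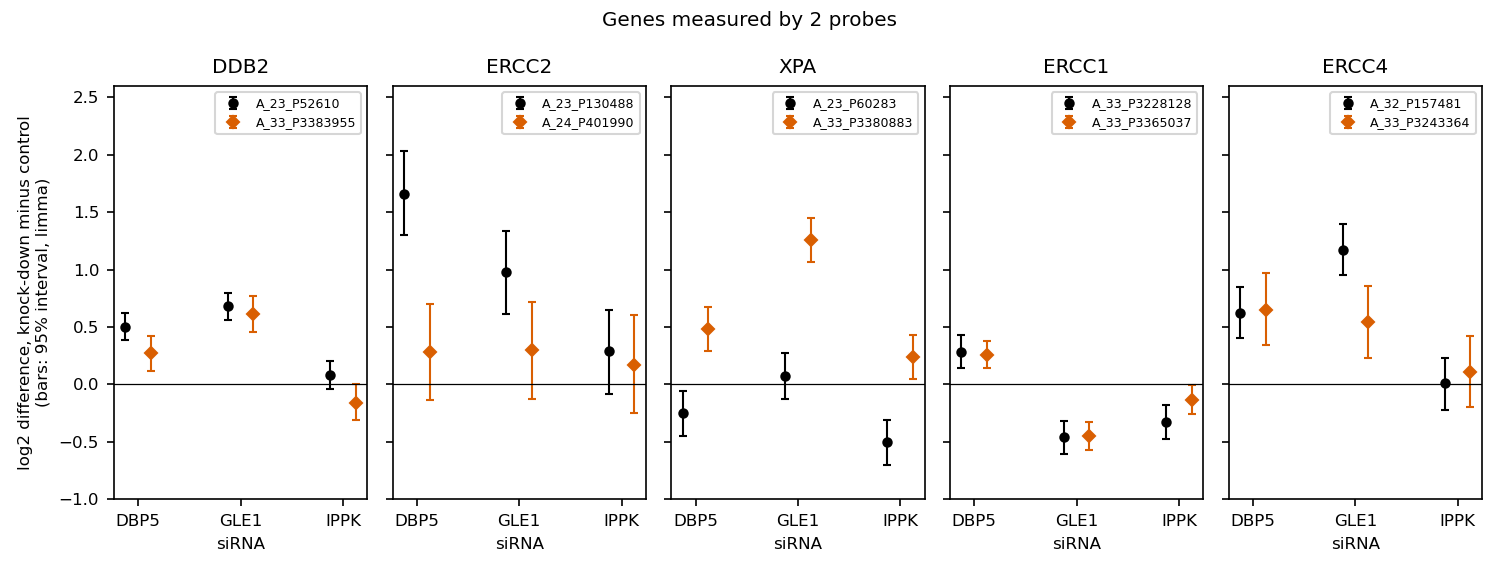
log2 difference from control for the 5 genes with 2 probes, by siRNA, with 95% intervals from limma. The intervals of ERCC1 probes lie on the same side of 0 in each knock-down, while those of XPA lie on opposite sides after DBP5 and IPPK siRNA and those of ERCC2 do not overlap after DBP5 siRNA.

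ERCC1, the partner that anchors the ERCC4 nuclease, rose after DBP5 siRNA and fell after GLE1 siRNA on both probes. Probe A_33_P3228128 read 13.68, 13.58 and 13.71 on the control arrays, 13.80, 13.98 and 14.04 after DBP5 siRNA, 13.19, 13.19 and 13.21 after GLE1 siRNA and 13.29, 13.33 and 13.36 after IPPK siRNA. No knock-down group overlapped with control. The ratios were 1.22 ± 0.106, 0.726 ± 0.00721 and 0.795 ± 0.0193 (SD, n = 3; limma adjusted p = 0.00387, 0.000107 and 0.00142). Probe A_33_P3365037 gave 1.19, 0.732 and 0.910 (0.00221, 3.18e-05 and 0.0562). Its IPPK siRNA arrays were all below the control arrays, and the difference passed the threshold in 4 of 22 alternatives (adjusted p from 0.0162 to 0.16), among them the fit without replicate 1 of DBP5 siRNA (0.031) and scaling to the 75th percentile (0.0162).

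ERCC4, the nuclease that cuts on the 5′ side of the lesion, rose after DBP5 and GLE1 siRNA on both probes. Probe A_32_P157481 read 6.81, 6.77 and 6.76 on the control arrays, 7.44, 7.38 and 7.40 after DBP5 siRNA, 7.89, 8.00 and 7.98 after GLE1 siRNA and 6.51, 6.90 and 6.96 after IPPK siRNA. The DBP5 and GLE1 siRNA arrays were all above control, and the IPPK siRNA arrays lay on both sides of it, with replicate 1 the lowest. The ratios were 1.54 ± 0.0289 and 2.26 ± 0.0897 (limma adjusted p = 0.000342 and 2.12e-06), and 1.00 ± 0.164 after IPPK siRNA, with a 95% interval from 0.861 to 1.17 (0.963). Without replicate 1 of IPPK siRNA the last difference was 0.15 on the log2 scale (adjusted p = 0.0428; 0.0428 to 1 over the alternatives, in 7 of which its sign turned). Probe A_33_P3243364 gave ratios of 1.57 ± 0.226, 1.46 ± 0.236 and 1.08 ± 0.105 (limma adjusted p = 0.00249, 0.00637 and 0.548). By the methods' t-test its DBP5 and GLE1 differences, of 0.65 and 0.54 on the log2 scale, were not called (adjusted p = 0.099 and 0.0578). With other processing or tests these differences ran from 0.42 to 0.66 and from 0.30 to 0.56. The ERCC4 probes and the second XPA probe read between 6.09 and 8.00, and with the processed values of the authors, made without background subtraction, the log2 difference after GLE1 siRNA was 0.76 in place of 1.17 for A_32_P157481 and 0.85 in place of 1.26 for the XPA probe.

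ERCC5, the nuclease that cuts on the 3′ side, fell to 0.501 ± 0.0205 of control after GLE1 siRNA (SD, n = 3; limma adjusted p = 3.25e-07). Its probe A_23_P117225 read 9.79, 9.97 and 9.99 on the control arrays, 9.86, 10.01 and 10.02 after DBP5 siRNA, 8.87, 8.98 and 8.91 after GLE1 siRNA and 10.03, 10.06 and 10.03 after IPPK siRNA. The GLE1 siRNA arrays were all below every other array, and the DBP5 siRNA arrays overlapped with control. This probe was printed in 10 spots per array, whose SD within an array ran from 0.036 to 0.1 on the log2 scale. All 30 spots of the GLE1 siRNA arrays, at 9.08 or below, were dimmer than the 90 spots of the other 9 arrays, at 9.69 or above. The spots of an array show the error of the measurement and are not replicates. After DBP5 siRNA the ratio was 1.03, with a 95% interval from 0.930 to 1.14 (adjusted p = 0.63), and after IPPK siRNA, where all arrays lay above control, it was 1.09, with an interval from 0.983 to 1.21 (0.143). RefSeq also lists the read-through gene BIVM-ERCC5, and whether the probe reads its transcript was not tested.

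The knock-downs were then compared with each other. 13 of the 15 probes differed between GLE1 and DBP5 siRNA, where 54.8% of all probes were called in either direction. Between IPPK and GLE1 siRNA 13 differed, beside 60.8% of all probes, and between IPPK and DBP5 siRNA 11, beside 49%. DDB1 was 2.54-fold higher after GLE1 than after DBP5 siRNA (95% interval 2.29 to 2.82, limma adjusted p = 7.57e-08) and 2.18-fold higher after IPPK than after DBP5 siRNA (1.96 to 2.42, 4.43e-07). ERCC5 after GLE1 siRNA was at 0.486 of its level after DBP5 siRNA (0.438 to 0.538, 4.10e-07), and after IPPK siRNA it was 2.18-fold higher than after GLE1 siRNA (1.96 to 2.41, 1.78e-07). ERCC6 after GLE1 siRNA was at 0.545 of its level after DBP5 siRNA (0.493 to 0.603, 1.26e-06). Its DBP5 and IPPK levels had a ratio of 1.00, with a 95% interval from 0.905 to 1.11.

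DDB2, XPC and ERCC4 were lower after IPPK than after DBP5 siRNA on each of their 5 probes, with ratios from 0.652 for ERCC4 A_32_P157481 (limma adjusted p = 0.000472) to 0.745 for DDB2 A_23_P52610 (7.53e-05). The ERCC2 probe A_23_P130488 was at 0.385 (0.299 to 0.495, 5.32e-05), while A_24_P401990 was at 0.928 (0.692 to 1.24, 0.685). On the slides taken singly, the direction was that of the call for 12 of the 13 probes called between GLE1 and DBP5 siRNA, the exception being XPC (GLE1 lower on 2 of 3 slides, ratio 0.874, adjusted p = 0.0349), and for all probes called in the other pairs. The comparisons share arrays with each other and with those against control.

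**Figure D4:**
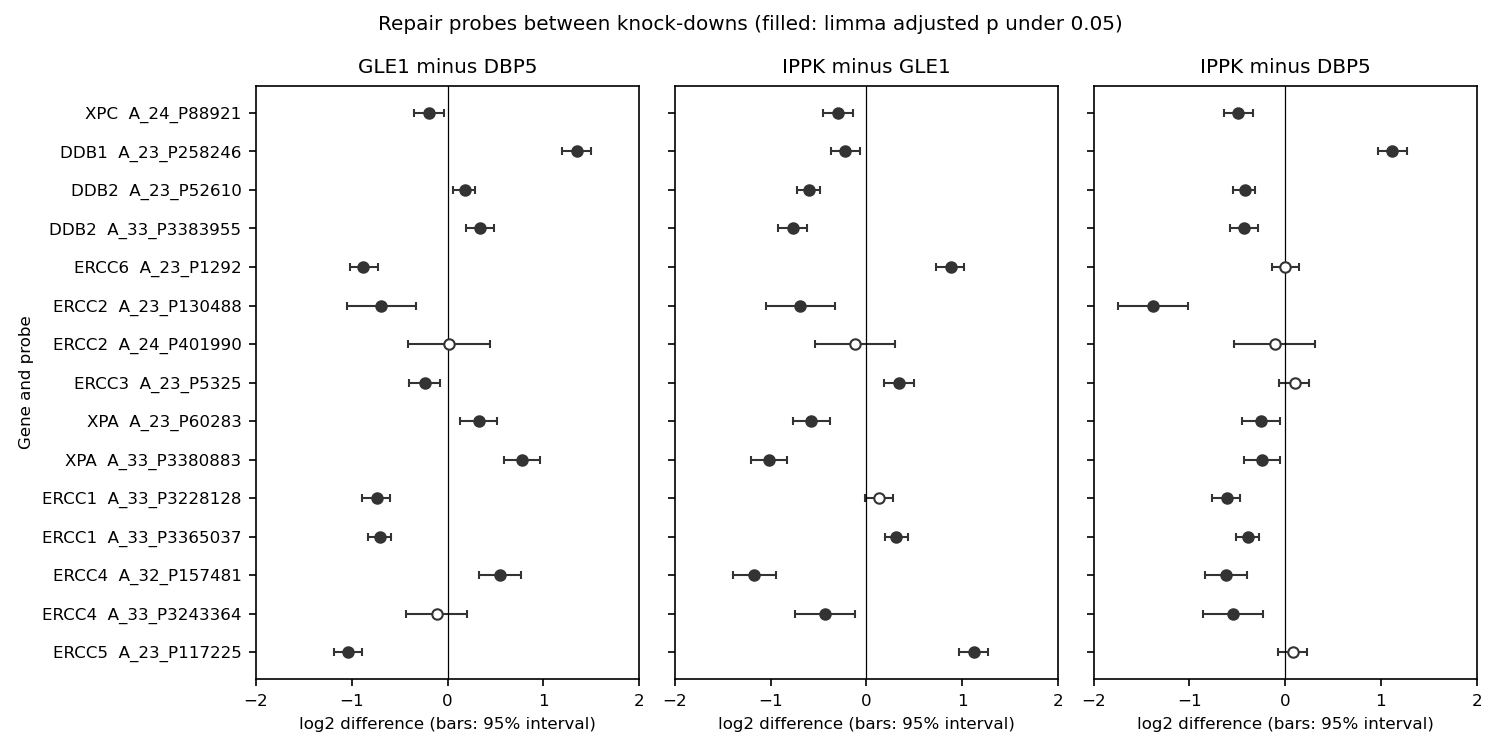
log2 difference of each repair probe between knock-downs, with 95% intervals from limma; filled points passed the adjusted p of 0.05 and open points did not. DDB1 was higher after GLE1 and IPPK than after DBP5 siRNA, and ERCC5, ERCC6 and ERCC1 were lower after GLE1 than after DBP5 siRNA.

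The other genes of the pathway were read on the brightest probe of each, which was there for 40 of 41 listed genes (GTF2H2 had no probe named for it alone). After DBP5 siRNA 15 were lower and 13 higher, after GLE1 siRNA 22 and 7, and after IPPK siRNA 18 and 7, beside the shares of all probes given above. Their median log2 differences were -0.06, -0.31 and -0.10, and for those named below the SE of a log2 difference ran from 0.048 for RPA3 to 0.145 for MNAT1. Without replicate 3 of control siRNA or replicate 1 of GLE1 siRNA, 4 in place of 7 were higher after GLE1 siRNA.

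Of all probes, 27% were called lower and 27.6% higher after DBP5 siRNA. The shares were 30.1% and 32.5% after GLE1 siRNA, and 27.9% and 27.4% after IPPK siRNA. The counts by branch, here and below, stand beside these shares, which are of all probes and not of 1 probe per gene. Partners of the lesion sensors were 5 higher and 0 lower of 6 after DBP5 siRNA, 2 higher and 2 lower after GLE1 siRNA and 3 higher and 1 lower after IPPK siRNA. RAD23B, which stabilises XPC, was at 1.23, 2.14 and 0.583 of control with DBP5, with GLE1 and with IPPK siRNA (limma adjusted p = 0.000985, 4.45e-08 and 8.9e-07), so that it moved in opposite directions after GLE1 and IPPK siRNA. CUL4A, the scaffold of the DDB1 ligase, was at 1.58 (3.76e-06), 0.916 (0.0735) and 0.968 (0.524).

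In the transcription-coupled branch, 1 of 6 genes was higher and 2 lower after DBP5 siRNA, 1 and 1 after GLE1 siRNA and 2 and 1 after IPPK siRNA. These counts were near or below the shares of all probes. ERCC8, the Cockayne syndrome protein CSA, rose to 1.59, 1.41 and 1.24 of control (limma adjusted p = 9.94e-06, 6.42e-05 and 0.00206). UVSSA, which brings TFIIH to the stalled polymerase, was at 0.716 (0.000495), 0.870 (0.053) and 0.969 (0.676).

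Of the 7 other TFIIH subunits, 2 were lower and 3 higher after DBP5 siRNA, 4 and 1 after GLE1 siRNA and 4 and 2 after IPPK siRNA. CCNH (cyclin H) was at 0.675 (9.13e-05), 0.367 (5.23e-08) and 0.980 (0.781) of control by limma adjusted p, and MNAT1, which joins it in the kinase module of TFIIH, was at 0.917 (0.518), 1.01 (0.955) and 0.518 (0.000246).

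RPA covers the undamaged strand, and the replication clamp, its loaders, polymerases and ligases refill the gap. Of its 3 subunits, 2 were lower and 1 higher after DBP5 siRNA, 3 and 0 after GLE1 siRNA and 2 and 0 after IPPK siRNA. RPA1, named after its values were seen, was at 1.19, 0.533 and 1.01 of control (limma adjusted p = 0.00164, 7.82e-08 and 0.79). RPA2 fell to 0.588, 0.387 and 0.601 of control (limma adjusted p = 4.55e-07, 4.21e-09 and 5.39e-07) and RPA3 to 0.664, 0.518 and 0.816 (2.57e-06, 4.35e-08 and 0.000413). Of 18 genes of gap filling and ligation, 9 were lower and 3 higher after DBP5 siRNA, 12 and 3 after GLE1 siRNA and 10 and 0 after IPPK siRNA. POLD3, a subunit of DNA polymerase delta, fell to 0.572, 0.356 and 0.817 (1.4e-06, 9.06e-09 and 0.0019), and POLE2, a subunit of DNA polymerase epsilon, was at 0.974 (0.78), 0.277 (4.76e-08) and 1.03 (0.74). These genes also serve DNA replication, and of 14 genes of S phase 13 were lower in each knock-down and 1, 0 and 1 higher after DBP5, GLE1 and IPPK siRNA, with median log2 differences of -0.84, -1.72 and -0.59, beside the shares of all probes given above. The part of cell cycle position in the values was not tested.

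**Figure D5:**
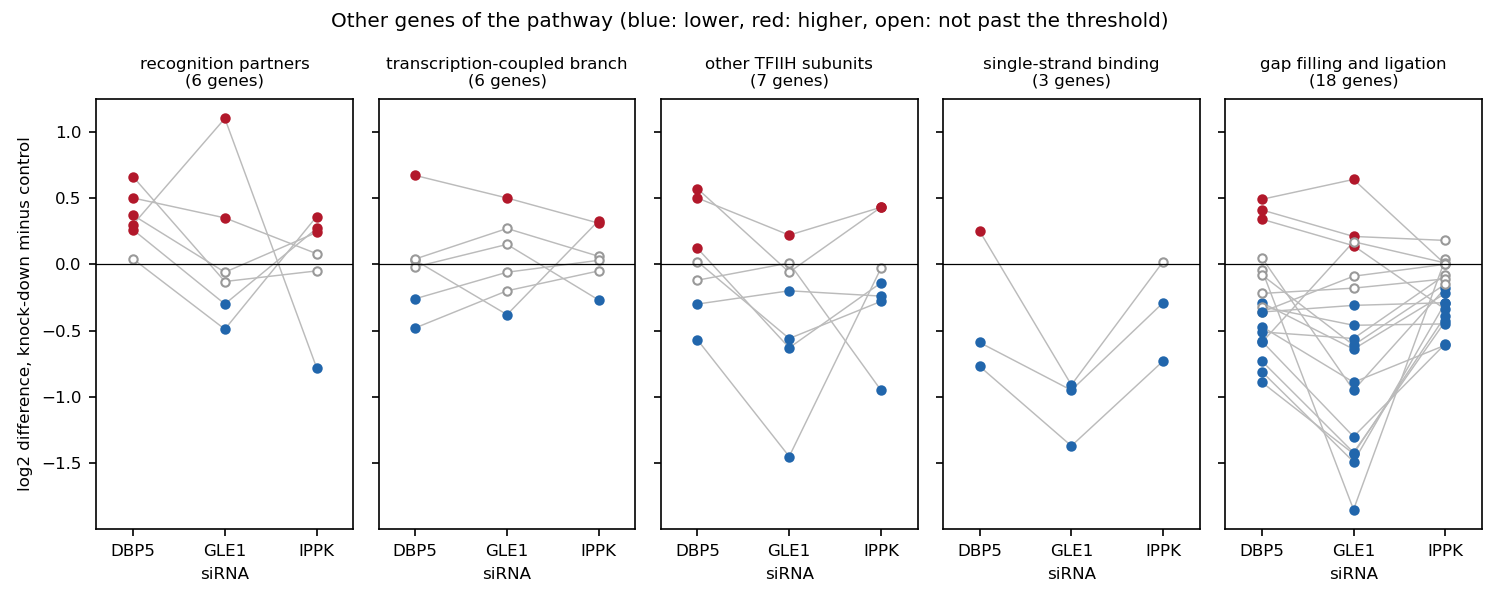
log2 difference from control for the brightest probe of each of 40 other genes of the pathway, by branch and siRNA, with a line joining the values of a gene. Blue points were called lower and red points higher by limma, and open points were not called; single-strand binding and gap-filling genes lay mostly below 0 after GLE1 siRNA.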

How the data were processed

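The 12 arrays carry Agilent's human 44K design (the design names hg19). The authors deposited, for every spot, a background-subtracted linear intensity, the median pixel intensity of spot and surroundings, and other values that are flags (outlier, saturated, well above background). They also deposited processed log2 values, which followed the log2 median intensity without subtraction (Pearson's r at least 0.99982 across probes). The log2 of the subtracted intensity was brought to a common scale by cyclic loess (span 0.7, 3 iterations) in limma 3.58.1 (R 4.3.3), control and outlier spots (169 to 358 per array) were left out and spots of a probe averaged. No spot was saturated. Probes were named through their accessions in RefSeq (26449 of 34127), and the 25879 that the flags put well above background on every array of 1 or more siRNAs were tested. Groups and replicate numbers came from the sample labels.

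limma fitted 1 mean per siRNA over all 12 arrays for 6 contrasts, two-sided, and Benjamini-Hochberg adjusted p-values ran over all probes of a contrast, at 0.05. A ratio is the difference of mean log2 values turned back, and its SD is that of the arrays' ratios. Array number and signal over background limit the precision. The replicate number marks the slide. Deviations from group means correlated at 0.309 to 0.519 between same-numbered arrays of different siRNAs (18 pairs), so the numbers pair the arrays. The range of -0.327 to -0.00825 between others (36 pairs) follows in part from taking off the group means. The main fit left this pairing out, and the replicate block was an alternative.

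Alternatives were 75th percentile scaling, quantile normalization, normexp (offset 50, on the median signal, since the files hold no mean signal), the authors' values, no filter or one on all 12 arrays, the replicate number as a block, a fit of the 6 arrays compared alone, leaving out each array, the methods' t-test on pairs of equal number, Dunnett's test (multcomp 1.4.28) and 1 probe per gene. All probes of the 10 genes are described. Of the other pathway genes, the 2 per branch with the largest difference among those called and not overlapping with control are named, and RPA1 was added after its values were seen. The members and lists were chosen with earlier results of these data known. Promoter windows are from RefSeq. Tables were handled with pandas 2.3.3 in Python 3.11.15 and figures drawn with matplotlib 3.10.9.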

Additional observations from a re-analysis of the deposited data

Results flagged for a closer look

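The differences below were picked out because a probe passed limma's threshold in opposite directions after 2 knock-downs and the knock-downs also differed from each other. DDB1 was lower than control after DBP5 siRNA and higher after GLE1 and IPPK siRNA, with log2 differences between knock-downs of 1.35 (GLE1 minus DBP5) and 1.12 (IPPK minus DBP5), in the same direction on all 3 slides. By the methods' t-test its DBP5 and IPPK differences from control were not called (adjusted p = 0.0555 and 0.0993). ERCC6 was lower after GLE1 siRNA and higher after DBP5 and IPPK siRNA, by -0.88 (GLE1 minus DBP5) and 0.88 (IPPK minus GLE1). For ERCC1, probe A_33_P3228128 differed by -0.74 (GLE1 minus DBP5) and -0.61 (IPPK minus DBP5), and probe A_33_P3365037 by -0.71 (GLE1 minus DBP5). The rises of ERCC6 after DBP5 and IPPK siRNA were not called without replicate 3 of control siRNA, nor by the methods' t-test (adjusted p = 0.185 and 0.136), which also lost the rises of the ERCC1 probes after DBP5 siRNA (0.15 for A_33_P3228128 and 0.0873 for A_33_P3365037). No cause was tested.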

How the results depend on the processing

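Counts kept within 1.5 times of the reported ones except as follows. The methods' t-test, with 3 pairs, called 0 member probes lower and 3 higher after DBP5 siRNA, 1 lower and 0 higher after IPPK siRNA, and 8 and 4 as different between DBP5 and GLE1 and between DBP5 and IPPK siRNA; of the other pathway genes it called 8 lower and 7 higher after DBP5 and 9 lower and 4 higher after IPPK siRNA. Taking 1 probe per gene, which leaves 10 of the 15 probes, gave 3 lower and 5 higher after DBP5 and 4 and 4 after GLE1 siRNA, and 8 that differed between IPPK and GLE1 siRNA and 6 between IPPK and DBP5 siRNA. Scaling to the 75th percentile gave 5 lower after IPPK siRNA, and the cause was not tested. With each array left out, the member probes called after DBP5 siRNA were 2 to 3 lower and 9 to 10 higher, after GLE1 siRNA 5 lower and 8 higher in every fit, and after IPPK siRNA 3 to 5 lower and 1 to 5 higher; 11 to 13, 11 to 14 and 9 to 11 differed in the pairs DBP5 with GLE1, GLE1 with IPPK, and DBP5 with IPPK. Other pathway genes were 15 to 16 lower and 12 to 13 higher, 21 to 23 and 4 to 8, and 15 to 19 and 6 to 8 after DBP5, GLE1 and IPPK siRNA.

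Of the member calls against control, the replicate block changed 1, that of ERCC2 A_24_P401990 after GLE1 siRNA (0.30 on the log2 scale, limma adjusted p = 0.041), and no other. Calls between knock-downs were followed over the alternatives only as counts. The methods' t-test lost 17 of the 32 member calls against control. The sign turned only for differences that had not passed the threshold: ERCC4 A_32_P157481 after IPPK siRNA (-0.05 with the 75th percentile, -0.01 with quantile normalization, -0.07 with normexp, -0.06 with the authors' values, and -0.08 to 0.15 with an array left out), and, with an array left out, ERCC2 A_24_P401990 after IPPK (-0.04 to 0.36), XPA A_23_P60283 after GLE1 (-0.01 to 0.13) and ERCC5 after DBP5 siRNA (-0.02 to 0.10). Scaling moved the median of all probes most for IPPK minus GLE1, to -0.13 with the 75th percentile. With 3 arrays per siRNA and no probe sequences read, probes that differ (ERCC2, XPA) could not be tied to parts of a transcript. Dim probes such as ERCC4 A_32_P157481 gave smaller differences after GLE1 siRNA with the authors' values, made without background subtraction, and the cause was not tested.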
